A study of Mus musculus with 32 samples.

Results

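The Schlafen genes are a family of mammalian genes named after the German word for sleeping, because the first members were found to hold lymphoid cells in a resting state. The 7 members described here (Slfn1, Slfn2, Slfn3, Slfn4, Slfn5, Slfn8 and Slfn9) were taken by symbol from a table of 24421 genes, which held 11 symbols beginning with Slfn. Their RNA was measured in bone marrow of C57BL/6 females, either 10 weeks old (Young) or 20 months old (Aged), from which 8 fractions were sorted, with 2 libraries in each of the 16 groups. All fractions were negative for lineage markers (Lin-). Hematopoietic stem cells (HSCs; CD34- CD150+ CD48- Flt3-) and the multipotent progenitors MPP1 (CD34+ CD150+ CD48- Flt3-), MPP2 (CD34+ CD150+ CD48+ Flt3-), MPP3 (CD34+ CD150- CD48+ Flt3-) and MPP4 (CD34+ CD150- CD48+ Flt3+) were Sca-1+ and c-kit+. Granulocyte-macrophage progenitors (GMPs; FcgR+ CD34+) and megakaryocyte-erythrocyte progenitors (MEPs; FcgR- CD34-) were Sca-1- and c-kit+, and common lymphoid progenitors (CLPs) were positive for the marker labelled IL-7 and low for Sca-1 and c-kit. The study states that marrow was pooled by age and then sorted in duplicate, and elsewhere calls its duplicates biological. The spread between 2 libraries may therefore be technical, and every p-value below measures only the spread between these libraries.

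Schlafen proteins share an N-terminal Schlafen core with a divergent AAA domain. The short members (Slfn1 and Slfn2) consist of little else, the intermediate members (Slfn3 and Slfn4) carry a further linker domain, and the long members (Slfn5, Slfn8 and Slfn9) add a C-terminal region related to helicases. Several family members bind RNA or cleave transfer RNA, several are induced by type I interferon, and mice with a loss-of-function mutation of Slfn2 have T cells and monocytes that leave the resting state and die.

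All 7 genes lie in 1 cluster of 263.8 kb on chromosome 11 (GRCm38, the genome called mm10; positions from GENCODE M21). Slfn5 (ENSMUSG00000054404) occupied positions 82951349 to 82964840 on the plus strand. The neighbouring Slfn9 (ENSMUSG00000069793, 82978390 to 82991830) and Slfn8 (ENSMUSG00000035208, 83002158 to 83020810) lie on the minus strand. Slfn2 (ENSMUSG00000072620, 83065112 to 83070678), Slfn1 (ENSMUSG00000078763, 83116849 to 83122670), Slfn4 (ENSMUSG00000000204, 83175186 to 83190216) and Slfn3 (ENSMUSG00000018986, 83191330 to 83215154) follow on the plus strand. The longest coding sequences ran from 1011 bases in Slfn1 and 1134 in Slfn2, through 1806 in Slfn4 and 1920 in Slfn3, to 2652 in Slfn5 and 2730 in both Slfn8 and Slfn9. Coding sequences were most alike in the pairs Slfn8 and Slfn9 (92.7% identical over 2730 aligned bases) and Slfn3 and Slfn4 (92.2% over 1778), while the other pairs of members shared between 61.2% and 76.9%.

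**Figure D1:**
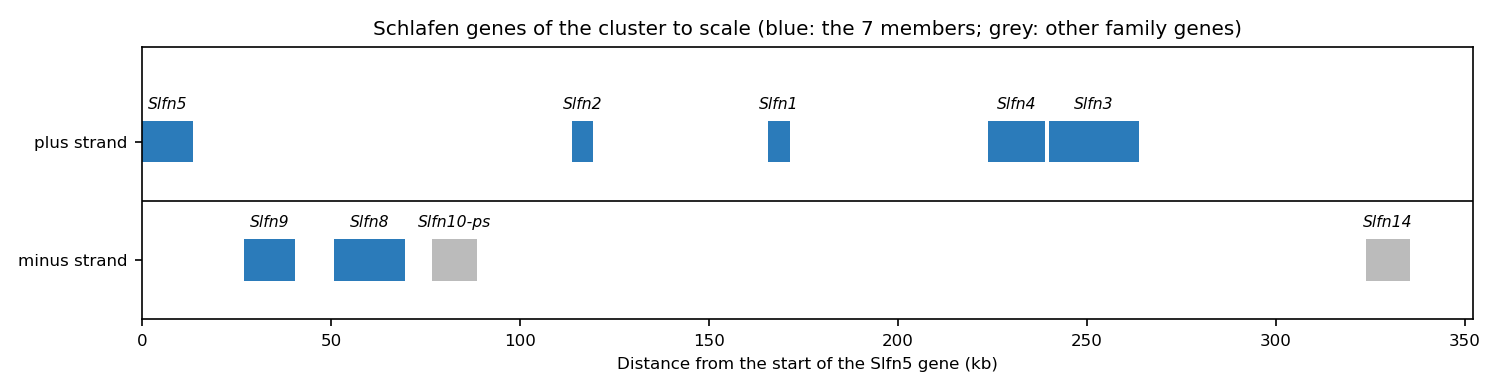
The Schlafen cluster drawn to scale, with distance from the start of Slfn5 in kb on the horizontal axis and the 2 strands as rows. Blue bars are the 7 members and grey bars are Slfn10-ps and Slfn14, and the near-identical pairs Slfn8 and Slfn9, and Slfn4 and Slfn3, are each adjacent on 1 strand.

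The reads were single and 60 bases long, so the share of the 60-base words in a gene's annotated transcripts that also occur in another gene shows how far the copies could be told apart. This share was 0.0554% for Slfn1, 3.05% for Slfn2, 7.19% for Slfn4, 8.52% for Slfn9, 9.79% for Slfn5, 10.8% for Slfn8 and 11.1% for Slfn3. The Slfn8 words were shared mainly with the pseudogene Slfn10-ps (7.64% of Slfn8) and with Slfn9 (6.37%), the Slfn3 words with Slfn4 (4.11%) and a predicted gene (4.93%), and the Slfn5 words with the overlapping antisense gene Slfn5os (7.07%). No use of strand was stated for the counts, so reads of Slfn5 and Slfn5os could not be told apart, and values of Slfn8, Slfn9, Slfn3 and Slfn4 are uncertain to the extent of these shared words.

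The promoters of the members (250 bases before to 50 after the start site, RefSeq, GRCm38.p6) were searched on both strands for 3 motifs through which interferon-induced factors act. All 7 members had a promoter sequence. The core of the interferon-stimulated response element, GAAANNGAAA, was found in Slfn5, Slfn8 and Slfn9, and in 3.44% of 32851 mouse promoters of this length. The composite of ETS and IRF sites, GGAANNGAAA, was found in Slfn2, and in 2.72% of all promoters. The gamma-activated site, TTCNNNGAA, was found in 0 of the 7 members and in 8.30% of all promoters. The matches are printed with 10 bases on either side, 5′ to 3′ along the strand of the gene, with the match in capitals.
Slfn2: gaggcagggcTTTCACTTCCtggagggtga
Slfn5: ccttcaaagtGAAAAAGAAAaaaaaaaaag
Slfn8: atttgagcagTTTCGTTTTCcccaaaagca
Slfn9: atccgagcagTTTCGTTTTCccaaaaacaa
The capitals of Slfn2 (chr11:83065053-83065062, plus strand) were the reverse complement of the ETS and IRF composite and began 59 bases before the start site, outside the gene. Those of Slfn5 (chr11:82951947-82951956, plus strand) began 155 bases before the RefSeq start site, within an intron of the longer GENCODE gene, and ran on into a stretch of A. Those of Slfn8 (chr11:83020849-83020858, minus strand) and Slfn9 (chr11:82991866-82991875, minus strand) were the same 10 bases, the reverse complement of the response element. They began 48 bases before the nearer of the 2 Slfn8 start sites and 45 bases before that of Slfn9. A match describes the letters in these windows and does not show that a factor binds there.

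Library totals ranged from 11237384 to 17723245 counts with a median of 13489609.5. The 7 members together took between 0.00411% (Young MEP, replicate 2) and 0.0271% (Aged HSC, replicate 1) of a library. Levels are given as CPM, counts per 1000000 counts of the library total, in the order of replicate 1 and replicate 2. A count of 0 allows up to 3 counts, or 0.169 to 0.267 CPM depending on the library, and such limits cover counting error alone. Transcripts of the sorted antigens followed the gates in the main, with Il7r at 151 CPM in Young and 184 in Aged CLPs against 0 in Young HSCs, MPP1 and GMPs. They did not follow them throughout, since HSCs sorted as CD34- had 222 (Young) and 189 (Aged) CPM of Cd34 and Young MPP3 sorted as Flt3- had 297 CPM of Flt3. Fewer cells of a type and less RNA per cell cannot be told apart in such bulk samples.

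Between genes, levels were compared per kilobase of exon. On this scale Slfn2, the short member tied to quiescence of T cells and monocytes, was the highest of the 7 in 7 of the 16 groups. It took 56.8% of the summed CPM per kb of the 7 members in Young HSCs and 69.9% in Aged HSCs, and 72.4% in Young GMPs and 53.8% in Aged GMPs. Slfn9 led in Young MPP1 (31.7%), in both ages of MPP2 (41.7% Young, 41.3% Aged) and MPP3 (33.1% and 41.8%), and in Aged MPP4 (38.8%), while Slfn8 led in Young MPP4 (35.6%). In MEPs the leading member was Slfn3 (45.1% Young, 43.6% Aged), and Slfn4 there reached 11.4% and 14.6%. Over the 32 libraries the mean level per kilobase was 17.9 CPM for Slfn2, 10.3 for Slfn9, 9.34 for Slfn8, 3.47 for Slfn5, 3.36 for Slfn3, 0.960 for Slfn4 and 0.171 for Slfn1.

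**Figure D2:**
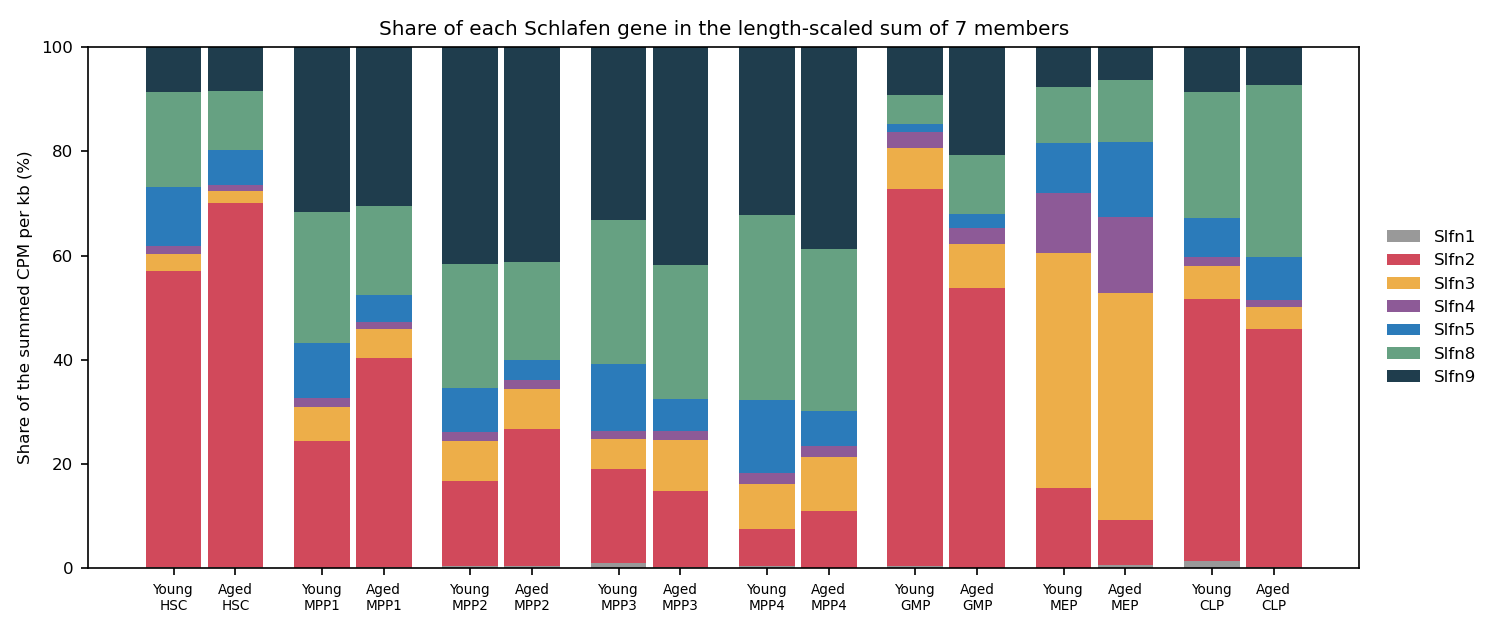
Share of each of the 7 members in their summed mean CPM per kilobase of exon (%), for Young and Aged groups of the 8 fractions. Slfn2 takes the largest part of the bars of HSCs, GMPs and CLPs, Slfn9 that of most MPP bars, and Slfn3 that of the MEP bars.

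The first comparison asked how the members' levels change from young HSCs to the other young fractions, which share the same HSC libraries. Differences were tested with edgeR's quasi-likelihood test over all 14154 genes that passed a filter on low counts, and called at an adjusted p under 0.01. All 7 members passed the filter. Of 49 tests of a member in a young fraction, 26 were called, against 43.4% of all gene tests in these contrasts. Of these, 12 were higher and 14 lower than in HSCs, where 21.9% and 21.5% of all gene tests were. By fraction, MPP1 had 3 of 7 members called (14.8% of all genes), MPP2 had 4 (33.5%), MPP3 had 2 (30.3%) and MPP4 had 4 (34.6%). GMPs had 5 (64.6%), MEPs 6 (68.7%) and CLPs 2 (57.3%). Log2 differences refer to library totals rescaled by TMM factors (0.807 to 1.11). With these factors the median gene fell by 0.24 on the log2 scale from HSCs to MEPs, and a change to DESeq2 size factors moved the median of GMPs against HSCs from -0.04 to -0.15.

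**Figure D3:**
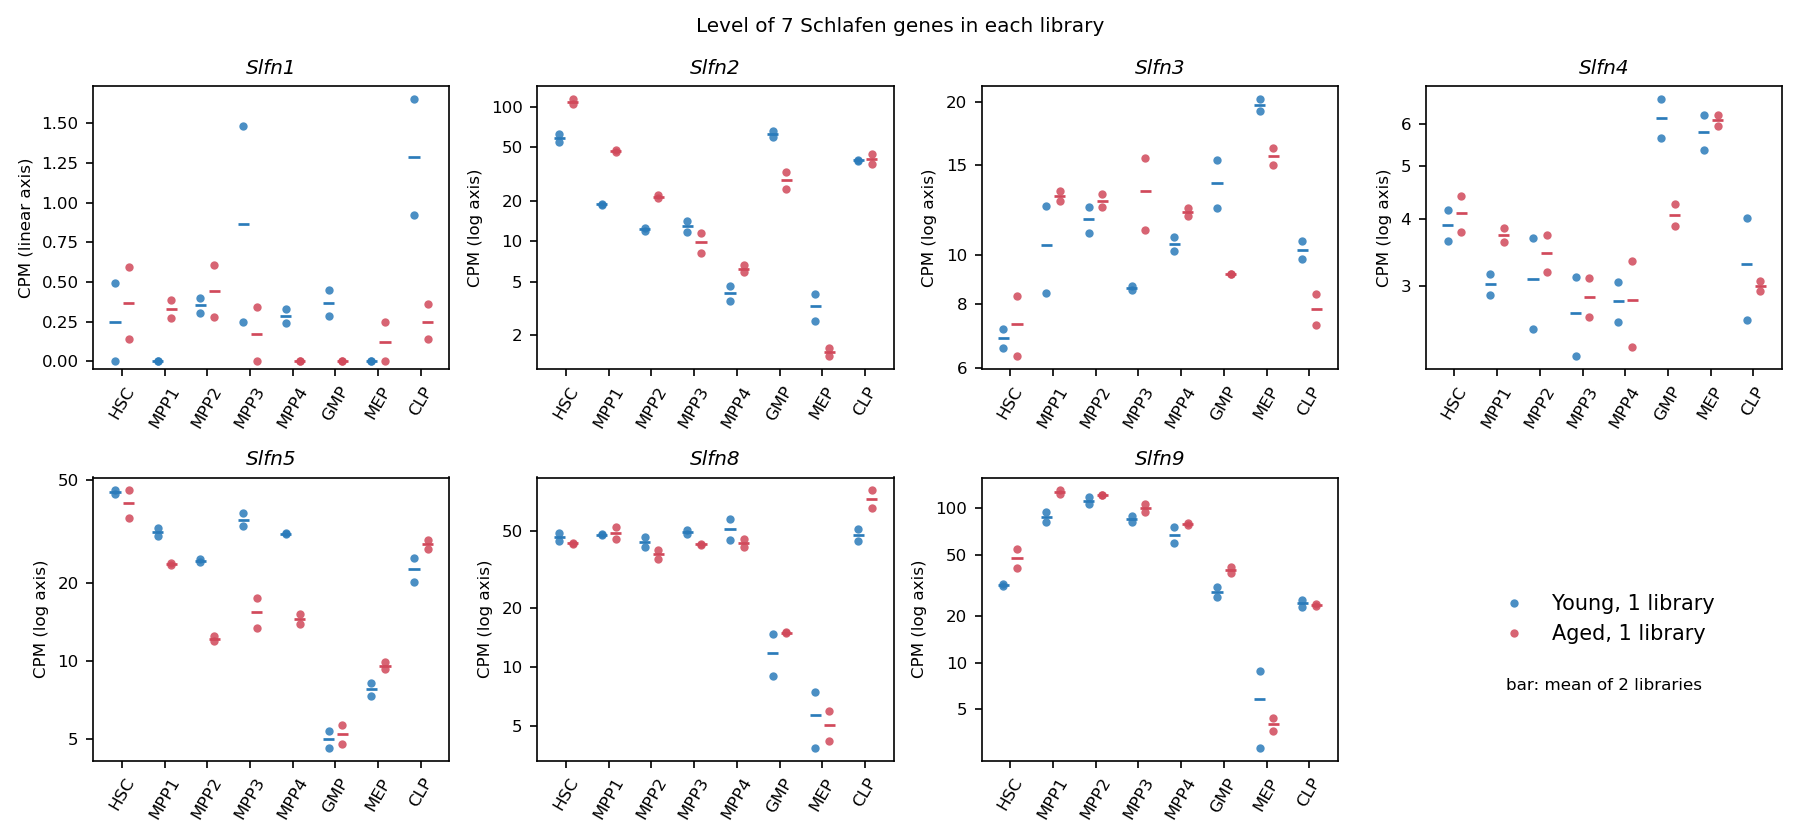
CPM of each member in all 32 libraries, by fraction, on log axes except for Slfn1, with Young in blue, Aged in red and a bar at the mean of 2 libraries. Slfn2 spans the widest range, from 1.40 to 114 CPM, and Slfn5 points of Aged MPP2, MPP3 and MPP4 lie below all Young points of those fractions.

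Slfn2 fell steeply from HSCs to the multipotent progenitors. Young HSCs had 55.0 and 62.3 CPM, MPP1 19.0 and 18.7, MPP2 11.9 and 12.6, MPP3 14.1 and 11.7, and MPP4 3.63 and 4.65. The log2 difference to HSCs was -1.67 ± 0.16 (SE) for MPP1, -2.24 ± 0.17 for MPP2, -2.15 ± 0.17 for MPP3 and -3.80 ± 0.19 for MPP4, the latter with an adjusted p of 4.93e-13. Downstream the fractions parted. Young MEPs held 4.04 and 2.54 CPM (log2 difference to HSCs -3.96 ± 0.19), whereas Young GMPs held 59.4 and 65.6 and CLPs 40.5 and 39.2. In CPM the libraries of GMPs and HSCs overlapped. After TMM rescaling the log2 excess of GMPs over HSCs was 0.51 ± 0.15 (adjusted p 0.00468). Its call was lost in 30 of 37 alternative analyses, DESeq2 size factors among them, so the order of these 2 fractions was not settled. In the order of young fractions (GMP, HSC, CLP, MPP1, MPP3, MPP2, MPP4, MEP) the steps from CLP to MPP1 and from MPP2 to MPP4 also passed the test. The steps from HSC to CLP, MPP1 to MPP3, MPP3 to MPP2 and MPP4 to MEP did not.

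Slfn9, a long member with a helicase-like region, took the opposite course and was highest in the multipotent progenitors. Young HSCs had 32.3 and 31.3 CPM, MPP1 94.1 and 81.8, MPP2 118 and 106, MPP3 81.9 and 89.3, and MPP4 75.8 and 59.3. The log2 excess over HSCs was 1.44 ± 0.21 for MPP1, 1.83 ± 0.21 for MPP2 (adjusted p 3.58e-07), 1.46 ± 0.21 for MPP3 and 1.12 ± 0.21 for MPP4. Within the order, no MPP fraction differed from a neighbouring MPP fraction. GMPs (26.57 and 30.98 CPM) and CLPs (23.1 and 25.7) were not called against HSCs. The 2 Young MEP libraries, at 8.81 and 2.82 CPM (144 and 41 counts), were the furthest apart, by ratio, of the Slfn9 duplicates. Their difference to HSCs was -2.24 ± 0.25, and -3.29 without replicate 1 or -1.63 without replicate 2.

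Slfn8, the close copy of Slfn9, was flat over most of the tree. It lay between 41.0 and 57.6 CPM in every Young library of HSCs, MPP1 to MPP4 and CLPs, and none of these fractions was called against HSCs. Young GMPs had 14.7 and 8.97 CPM (log2 difference to HSCs -1.55 ± 0.21) and Young MEPs 7.46 and 3.85 (-2.83 ± 0.23, adjusted p 2.20e-10). Slfn5, for which a role as a corepressor of interferon-driven transcription has been described in human cells, was highest in HSCs, at 45.4 and 44.0 CPM. It was lower in MPP1, MPP2, MPP4 and CLPs (log2 differences of -0.49 to -0.86), and the calls in MPP1 and MPP4 were each lost without any 1 of the libraries compared (adjusted p up to 0.0466 and 0.0229). The differences were wider in Young GMPs (5.35 and 4.63 CPM, -2.74 ± 0.15) and MEPs (8.19 and 7.35, -2.33 ± 0.14). In the order of young fractions the only neighbours of Slfn5 that differed were CLP (22.6 CPM on average) and MEP (7.77).

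Slfn3 and Slfn4, the intermediate members, ran the other way and were highest in the committed myeloid and erythroid fractions. Slfn3 had 6.58 and 7.17 CPM in Young HSCs, 15.4 and 12.4 in GMPs (log2 1.43 ± 0.18) and 20.2 and 19.2 in MEPs (1.70 ± 0.18, adjusted p 1.95e-08). Smaller increases over HSCs were called in MPP2 (0.78 ± 0.18), CLPs (0.76 ± 0.19) and MPP4 (0.65 ± 0.18), the last of them lost in 16 of 37 alternatives. Slfn4, known from activated macrophages and myeloid suppressor cells, was low throughout, between 2.22 and 6.67 CPM. It was called higher in Young GMPs (6.67 and 5.64 CPM against 3.64 and 4.15 in HSCs, 1.08 ± 0.25) and in MEPs (0.76 ± 0.25, adjusted p 0.00983). The MEP call was lost with DESeq2 size factors (adjusted p 0.0124) and in 16 of 37 alternatives in all. Slfn1 had at most 21 counts in a library, was at 3 counts or fewer in 16 of 32 and at 0 in 11, and showed no called difference.

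The second comparison was that of Aged with Young cells in each fraction. Of 56 tests of a member in a fraction, 10 were called, against 12.6% of all gene tests. They comprised 4 higher and 6 lower in Aged, beside 7.01% and 5.57% of all gene tests. HSCs had 1 of 7 members called (5.4% of all genes), MPP1 1 (6.8%), MPP2 2 (7.81%), MPP3 2 (13.9%), MPP4 1 (16.6%), GMPs 2 (18.9%) and MEPs 1 (20.8%). In CLPs edgeR called 0 members (10.4%), as did DESeq2, and 2 members, Slfn5 and Slfn8, had an unadjusted p under 0.05. The calls fell on 3 genes. Slfn2 was called in 5 fractions, Slfn5 in 3 and Slfn3 in 2, and Slfn1, Slfn4, Slfn8 and Slfn9 in 0.

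**Figure D4:**
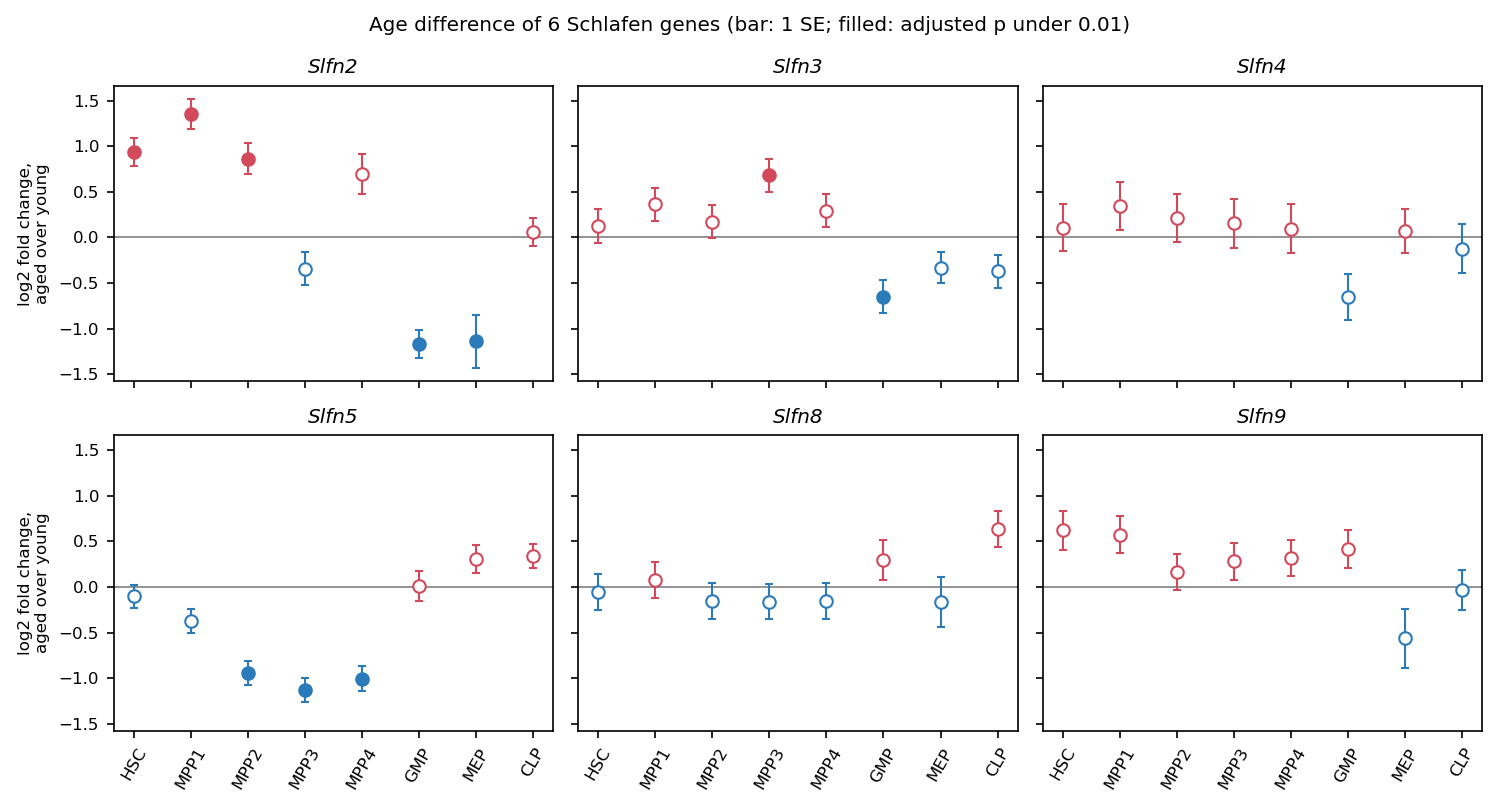
Log2 fold change of Aged over Young cells for 6 members in the 8 fractions, with bars of 1 SE, from edgeR with 2 libraries per group. Filled points passed an adjusted p under 0.01: Slfn2 lies above 0 in HSCs, MPP1 and MPP2 and below 0 in GMPs and MEPs, and Slfn5 lies below 0 in MPP2, MPP3 and MPP4.

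Slfn2 rose with age at the top of the tree and fell in the myeloid and erythroid fractions. In HSCs it went from 55.0 and 62.3 CPM to 114 and 104, and both Aged libraries lay above both Young ones (log2 0.94 ± 0.15, adjusted p 0.000254). In MPP1 it went from 19.0 and 18.7 to 45.9 and 47.5 CPM (1.35 ± 0.16, adjusted p 1.01e-05), and in MPP2 from 11.9 and 12.6 to 22.2 and 20.9 (0.86 ± 0.17, adjusted p 0.0017). MPP4 (3.63 and 4.65 to 5.93 and 6.64 CPM, 0.70 ± 0.22, adjusted p 0.0206) and MPP3 (14.1 and 11.7 to 11.5 and 8.18, -0.34 ± 0.18, adjusted p 0.189) did not pass the threshold. In CLPs the groups overlapped, with 40.5 and 39.2 CPM in Young and 44.2 and 37.8 in Aged. Aged GMPs fell to 24.6 and 33.0 CPM from 59.4 and 65.6 (-1.17 ± 0.16, adjusted p 1.03e-05), and Aged MEPs to 1.60 and 1.40 from 4.04 and 2.54 (-1.14 ± 0.29, adjusted p 0.00455). The calls in MPP1 and GMPs held in all 38 alternatives. That in HSCs was lost without Young HSC replicate 1 (adjusted p 0.014), that in MPP2 in 3 alternatives (up to 0.0313) and that in MEPs in 4 (up to 0.124, in a fit on the 4 MEP libraries alone). Of all 14154 genes tested, 227 (1.6%) were called higher in at least 2 and lower in at least 2 fractions, as Slfn2 was.

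In Aged cells the order of mean Slfn2 levels was HSC, MPP1, CLP, GMP, MPP2, MPP3, MPP4 and MEP. HSCs now differed from the next fraction (log2 1.26, adjusted p 1.4e-06). The steps from GMP to MPP2, MPP2 to MPP3 and MPP4 to MEP also passed the test. Those from MPP1 to CLP, CLP to GMP and MPP3 to MPP4 did not, so the order of these neighbours was not settled. The summed CPM of 6 neutrophil markers (S100a8, S100a9, Ngp, Camp, Ltf and Mmp8) moved with Slfn2 in some fractions and not in others. It rose from 60.5 and 64.3 in Young to 294 and 308 in Aged HSCs and fell from 228 and 234 to 78.3 and 104 in GMPs, with 0 of the 6 markers at 0 in either fraction. In MPP2, where Slfn2 rose, the same sum fell from 706 and 748 to 259 and 267, and in MPP1 it was 101 and 75.2 in Young and 86.7 and 104 in Aged. The 6 monocyte markers fell in HSCs, from 22.4 and 24.2 to 16.9 and 18.5 CPM, and in MPP2, from 149 and 148 to 112 and 108. In MPP1, where Slfn2 rose as well, they overlapped, at 33.6 and 31.5 in Young and 31.3 and 31.8 in Aged. In CLPs, where the Slfn2 groups overlapped, they rose from 368 and 374 to 703 and 559. They summed to 4492 and 4612 CPM in Young and 3363 and 3897 in Aged GMPs. In MEPs they summed to 15.3 and 14.2 in Young and 3.56 and 2.80 in Aged. Other markers fell in MEPs too, with natural killer and innate lymphoid markers going from 32.4 and 36.2 to 12.9 and 16.2 CPM, macrophage markers from 8.26 and 5.29 to 0 and 0.495, and mean Il7r from 12.8 to 0.295. Natural killer and innate lymphoid markers rose in HSCs (101 and 98.4 to 166 and 169 CPM). They also rose in MPP1 (94.0 and 99.9 to 106 and 114) and MPP2 (186 and 199 to 208 and 214). In GMPs, where Slfn2 fell, they rose from 595 and 560 to 836 and 884. Megakaryocyte and platelet markers rose in HSCs (379 and 365 to 602 and 631) and MPP1 (193 and 196 to 237 and 248). They fell in MPP2 (375 and 383 to 324 and 315) and MEPs (86.4 and 98.6 to 52.7 and 56.5). The part of these cell type markers in the Slfn2 results was not tested.

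Slfn5 fell with age in the multipotent progenitors. It went from 24.6 and 24.0 to 12.5 and 11.9 CPM in MPP2 (log2 -0.94 ± 0.14, adjusted p 9.07e-05), from 37.1 and 33.0 to 17.4 and 13.4 in MPP3 (-1.13 ± 0.13, adjusted p 3.97e-06) and from 31.2 and 30.7 to 15.2 and 13.9 in MPP4 (-1.004 ± 0.13, adjusted p 1.06e-05). Young and Aged libraries did not overlap in these fractions, and the 3 calls held in all 38 alternatives. MPP1 showed 32.6 and 30.4 CPM in Young and 23.8 and 23.4 in Aged (-0.38 ± 0.13), which did not pass (adjusted p 0.0612). In HSCs the groups overlapped, with 45.4 and 44.0 CPM in Young and 45.4 and 35.6 in Aged. In GMPs they overlapped as well (5.35 and 4.63 against 4.79 and 5.66). MEPs (8.19 and 7.35 against 9.88 and 9.32) and CLPs (25.03 and 20.11 against 29.1 and 27.1) had the higher values in Aged, and neither passed (adjusted p 0.128 and 0.08). Slfn5os, the antisense gene that overlaps Slfn5, had 21 counts in Aged HSC replicate 2 and 0 in the other 31 libraries. The 6 macrophage markers (C1qa, C1qb, C1qc, Adgre1, Cd5l and Vcam1) fell in the same 3 fractions, from 127 and 141 to 41.5 and 41.6 CPM in MPP2, from 106 and 114 to 31.5 and 31.5 in MPP3 and from 45.4 and 50.6 to 10.97 and 9.45 in MPP4, with 0 of 6 at 0. They also fell where Slfn5 was not called, from 131 and 144 to 3.00 and 2.50 in CLPs, from 30.4 and 32.9 to 13.1 and 14.4 in MPP1, from 36.1 and 45.4 to 16.3 and 23.1 in HSCs and from 8.26 and 5.29 to 0 and 0.495 in MEPs. Their part in the Slfn5 result was not tested.

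Slfn3 was called in opposite directions in 2 fractions. It rose in MPP3 from 8.52 and 8.70 to 15.5 and 11.2 CPM (log2 0.68 ± 0.18, adjusted p 0.00816) and fell in GMPs from 15.4 and 12.4 to 9.19 and 9.16 (-0.65 ± 0.18, adjusted p 0.00795). Both calls were near the threshold. The first was lost in 9 of 38 alternatives, DESeq2 size factors among them (adjusted p 0.0128), and the second in 24 of 38. In MPP3 the summed neutrophil markers fell with age from 1155 and 1151 to 181 and 244 CPM. The monocyte markers there fell from 293 and 300 to 106 and 103 and 6 erythroid markers from 142 and 303 to 38.6 and 34.7. In GMPs the erythroid markers fell from 138 and 161 to 7.90 and 1.71 CPM. Basophil and mast cell markers fell there from 567 and 573 to 265 and 323, and neutrophil markers from 228 and 234 to 78.3 and 104. Natural killer and innate lymphoid markers rose in GMPs, from 595 and 560 to 836 and 884. The part of these markers in the Slfn3 results was not tested. MEPs, where Slfn3 was highest, went from 20.2 and 19.2 to 15.04 and 16.24 CPM (-0.33 ± 0.17, adjusted p 0.148).

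The other members gave no called age difference in any fraction. Slfn9 was higher in both Aged libraries than in both Young ones in HSCs (32.3 and 31.3 against 54.4 and 40.9 CPM, log2 0.62 ± 0.21, adjusted p 0.065) and in MPP1 (94.1 and 81.8 against 131 and 124, 0.57 ± 0.20, adjusted p 0.0629). These 2 differences passed the threshold in HSCs (adjusted p 0.00287 and 0.00385) and MPP1 (0.00178 and 0.00137) when Young MEP replicate 1 or 2 was left out, and that in MPP1 also in a fit on the 4 MPP1 libraries alone (log2 0.58, adjusted p 0.000515). In MEPs the sign of its age difference (-0.56 ± 0.32) turned on the same libraries, from 0.47 without Young replicate 1 to -1.19 (adjusted p 0.000307) without replicate 2. Slfn8 in CLPs went from 50.8 and 44.1 to 80.4 and 65.0 CPM (0.64 ± 0.19, adjusted p 0.0245), and passed when either Young MEP library was left out (0.00912 and 0.008). Slfn4 in GMPs went from 6.67 and 5.64 to 4.25 and 3.87 CPM (-0.65 ± 0.25, adjusted p 0.0522). Slfn1 counts in GMPs were 5 and 8 in Young and 0 and 0 in Aged, and in CLPs 21 and 12 in Young and 2 and 5 in Aged, a depth at which no difference was called.

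The third comparison tested the differences between age effects themselves. The age difference averaged over MPP1 to MPP4 was called for 4 of 7 members, against 36.7% of all genes: Slfn2 (log2 0.64 ± 0.09), Slfn3 (0.38 ± 0.09) and Slfn9 (0.33 ± 0.10, adjusted p 0.00852) were higher, and Slfn5 (-0.86 ± 0.07, adjusted p 1.11e-09) was lower in Aged cells. The Slfn9 call was lost in 21 of 37 alternatives, with DESeq2 size factors at an adjusted p of 0.0149. The age difference in each of the other fractions was then set against this mean, so these contrasts share it and are not independent. In all, 9 of 28 tests were called, against 19.3% of all gene tests in these contrasts (4 higher and 5 lower, beside 8.78% and 10.5%). HSCs had 1 of 7 members called (3.01% of all genes), GMPs 3 (26.6%), MEPs 3 (24.8%) and CLPs 2 (22.6%).

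The Slfn2 age difference in GMPs lay 1.81 ± 0.18 below that of the MPPs on the log2 scale (adjusted p 1.46e-07) and that in MEPs lay below it as well (-1.78 ± 0.30, adjusted p 9.05e-05). In HSCs it did not differ from the MPP mean (0.30 ± 0.18, adjusted p 0.347), and in CLPs the difference was -0.58 ± 0.18 (adjusted p 0.0165). The Slfn2 mean combined unlike values, 1.35 in MPP1, 0.86 in MPP2 and 0.70 in MPP4 with -0.34 in MPP3. Of these, MPP3 and MPP4 were not called. For Slfn5 the age difference of all 4 other fractions lay above that of the MPPs, by 0.76 ± 0.14 in HSCs, 0.88 ± 0.18 in GMPs, 1.17 ± 0.17 in MEPs and 1.20 ± 0.15 in CLPs. For Slfn3 it lay below, by -1.03 ± 0.20 in GMPs, -0.71 ± 0.19 in MEPs and -0.75 ± 0.20 in CLPs. The calls of Slfn2 in GMPs and MEPs, of Slfn5 in MEPs and CLPs and of Slfn3 in GMPs held in all 37 alternatives. The Slfn5 call in GMPs was lost without Aged GMP replicate 2 (adjusted p 0.0154), and that in HSCs without Young HSC replicate 1 (0.019), Young HSC replicate 2 (0.0344) or Aged HSC replicate 1 (0.0274). The Slfn3 call was lost in 4 alternatives in MEPs (up to 0.0295, without Aged MEP replicate 1) and in 6 in CLPs (up to 0.0462, without Aged CLP replicate 1).

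Of the other family genes in the table, the pseudogene Slfn10-ps lies next to Slfn8 and shares words with Slfn8 and Slfn9. In Young cells it was lowest in GMPs (3.05 and 2.09 CPM) and highest in MPP4 (25.1 ± 4.15 CPM, SD, n = 2). With age it rose in GMPs to 4.79 and 5.66 CPM (log2 0.97 ± 0.21, adjusted p 0.00115). In MEPs it rose from 6.79 and 6.26 to 13.3 and 14.4 (1.09 ± 0.18, adjusted p 7.54e-05). Its age difference averaged over MPP1 to MPP4 was -0.35 ± 0.08 (adjusted p 0.00125). None of these fractions was called alone, and in MPP1 the log2 difference was -0.04 (adjusted p 0.943). The GMP call was lost in 3 and the MEP call in 1 of 38 alternatives. Slfn14, a long member outside the cluster of 7 and known for its role in platelets and red cells, had at most 17 counts in a library and 0 in 17 libraries. Slfnl1, on chromosome 4, was at 0 in all 32 libraries.

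A list of 51 interferon-stimulated genes and a list of 15 genes of interferon signalling give the setting of the family's usual inducers. All 66 passed the filter. Of the 51, Aged HSCs had 3 called higher and 0 lower (5.4% of all genes called in either direction), MPP1 3 and 0 (6.8%), MPP2 2 and 6 (7.81%), MPP3 1 and 13 (13.9%), MPP4 5 and 8 (16.6%), GMPs 12 and 3 (18.9%), MEPs 15 and 8 (20.8%), and CLPs 21 and 1 (10.4%). The counts in HSCs and MPP1 were near these shares. Their median log2 difference was -0.35 in MPP3 and 0.49 in CLPs, beside -0.04 and 0 for all genes. The neutrophil, monocyte and macrophage marker sums that fell in MPP3, given above for Slfn3 and Slfn5, moved with that count too, and their part in it was not tested. In MPP2, MPP3 and MPP4, where more of the list were called lower than higher, Slfn5 was lower, while Slfn2 was higher in MPP2 and Slfn3 in MPP3. In CLPs, where 21 of the list were higher, 0 members were called. In GMPs, where 12 were higher, Slfn2 and Slfn3 were lower, and in MEPs, with 15 higher, Slfn2 was lower. In HSCs and MPP1, with 3 higher in each, Slfn2 was higher. Rsad2, the antiviral protein viperin, fell in 5 fractions (log2 -1.24 in MPP3 and -2.56 in GMPs), while Ifi47, an interferon-inducible GTPase, rose in 6 (0.60 in MPP3 and 0.96 in CLPs). Ly6e, Lgals3bp and Igtp were called higher in 5 fractions each.

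The counts depended on the method. DESeq2 called 5 higher and 0 lower in HSCs, 4 and 4 in MPP1, 2 and 14 in MPP2 and 2 and 21 in MPP3, and edgeR with DESeq2 size factors called 2 and 10 in MPP2. Leaving out 1 library also changed the count called by more than 1.5 times in some fractions. In MPP3 14 genes were called in all, and 8, 6, 4 and 7 without Young replicate 1, Young replicate 2, Aged replicate 1 and Aged replicate 2. In MPP2 8 were called, and 1, 3, 2 and 2 in the same order, or 13 without either Young GMP library. In MPP4 13 were called, and 6 without Young replicate 1, 5 without Aged replicate 1 and 4 without Aged replicate 2. In CLPs 22 were called, and 14 without Young replicate 2. Beside the CLP count, 6 basophil and mast cell markers went from 1711 and 1751 to 8.28 and 15.7 CPM, 6 macrophage markers from 131 and 144 to 3.00 and 2.50 and 6 plasmacytoid dendritic cell markers from 3296 and 3241 to 6156 and 4737 with age, and their part in it was not tested. In HSCs 3 were called, and 1 without either Young library or without Aged replicate 2. In MPP1 3 were called, and 1 without Young replicate 1 or 5 without any 1 library of Young GMPs, Aged HSCs or Aged CLPs.

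**Figure D5:**
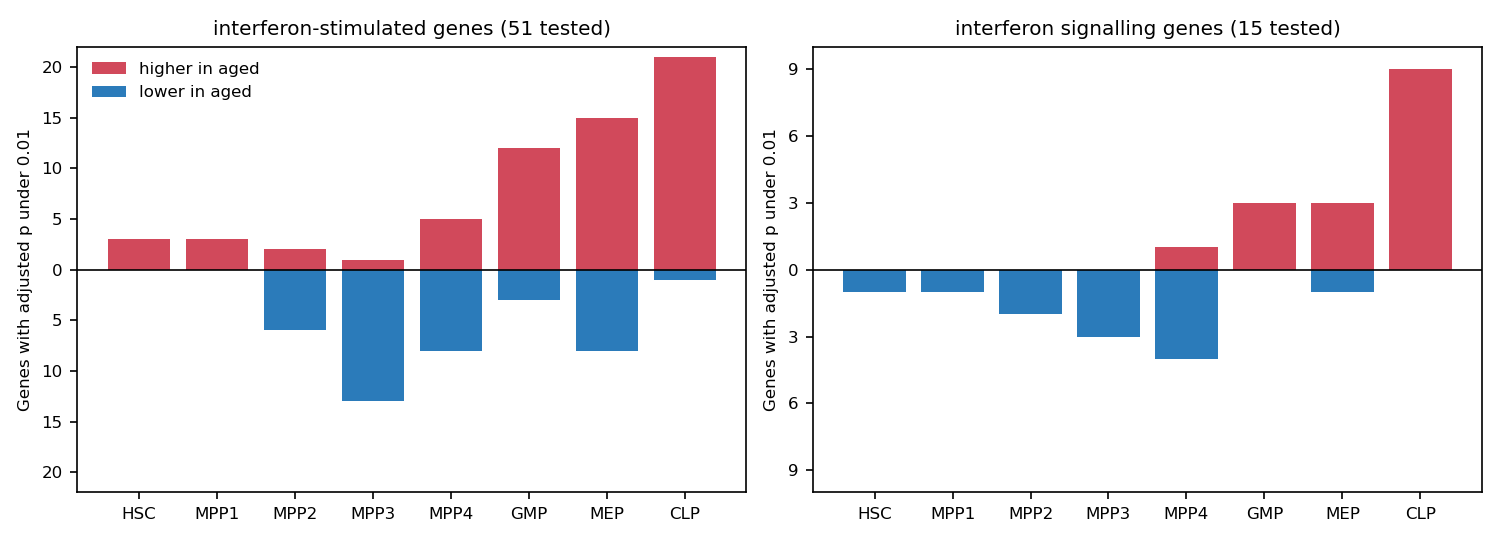
Number of interferon-stimulated genes (left, 51 tested) and interferon signalling genes (right, 15 tested) called higher (red, upward) or lower (blue, downward) in Aged cells at an adjusted p under 0.01, by fraction. In CLPs 21 of 51 and 9 of 15 are higher, and in MPP3 13 of 51 and 3 of 15 are lower.

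Of the 15 signalling genes, Aged CLPs had 9 higher and 0 lower (10.4% of all genes called), GMPs 3 and 0 (18.9%), MEPs 3 and 1 (20.8%), MPP4 1 and 4 (16.6%), MPP3 0 and 3 (13.9%), MPP2 0 and 2 (7.81%), and both HSCs (5.4%) and MPP1 (6.8%) 0 and 1. With DESeq2 the counts were 4 and 2 in GMPs, 1 and 7 in MPP4, 0 and 7 in MPP3 and 0 and 2 in MPP1, and with its size factors in edgeR 3 and 1 in GMPs. Stat2, a signal transducer of type I interferon, rose in GMPs (log2 0.72), MEPs (0.68) and CLPs (1.13). Irf1, an activator of interferon targets, rose in GMPs (0.83), MEPs (1.31) and CLPs (0.96) and fell in MPP4 (-0.76). Irf2, its repressing counterpart, fell in HSCs (-0.38), MPP1 (-0.38), MPP3 (-0.40) and MPP4 (-0.41). Irf8, the myeloid and lymphoid factor of the same family, rose in MPP4 (0.51) and CLPs (0.55) and fell in MPP3 (-1.19) and MEPs (-3.41). Irf7, the factor that amplifies type I interferon, rose in CLPs (1.65) and fell in MPP2 (-0.76) and MPP3 (-0.67). The monocyte marker sums given above fell in HSCs, MPP2, MPP3, GMPs and MEPs and rose in CLPs. The plasmacytoid dendritic cell markers rose in CLPs as well. The part of these markers in the signalling results was not tested. Without any 1 of their own 4 libraries, 0 signalling genes were called in MPP1 and in MPP2, and 2 were called in MPP1 without either Young MEP library. The HSC call was lost without Young HSC replicate 1. In MPP3 1 was left without Young replicate 2 or Aged replicate 1, and in MPP4 2 without Young replicate 1 and 3 without either Aged library. In GMPs 5 and 6 were called without Young MEP replicate 1 and 2.

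Within 500 kb of the cluster the table held 20 tested genes outside the family. Aged MPP3 had 0 of these called higher and 6 lower (13.9% of all genes called), MPP4 0 and 6 (16.6%) and MPP2 1 and 3 (7.81%). CLPs had 0 and 4 (10.4%), MPP1 0 and 2 (6.8%), HSCs 1 and 0 (5.4%), GMPs 3 and 1 (18.9%) and MEPs 1 and 2 (20.8%). Lower calls among these neighbours were found both where Slfn5 was called lower (MPP2, MPP3 and MPP4) and where it was not (CLPs, MPP1, GMPs and MEPs). The macrophage marker sums given above for Slfn5 fell in MPP1 to MPP4 and CLPs, and in HSCs and MEPs as well. Their part in the calls of these neighbours was not tested. Those called in the most fractions were the chemokine genes Ccl4 (lower in 5 and higher in 1) and Ccl3 (lower in 4 and higher in 1), Rffl, Ccl6 and Ccl9 (lower in 3 each) and Wfdc17 (higher in 2 and lower in 1).

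The genes most like each member were sought by Pearson's r of mean log2 CPM over the 16 groups, among tested genes that averaged 5 CPM or more. These values describe 16 points that share their libraries and carry no test. For Slfn2 they were Selm (0.908), Cstb (0.889) and Orai3 (0.882), which encode a selenoprotein, a cystatin and a calcium channel subunit. For Slfn5 they were Jade2 (0.979), Foxj2 (0.966) and the interferon-inducible GTPase gene Gbp9 (0.958). For Slfn3 they were Suv39h2 (0.970), Ppat (0.966) and Psmd1 (0.966), for Slfn4 Spcs1 (0.957), Dolk (0.953) and Ormdl2 (0.948), for Slfn8 Fam169b (0.988), Itpr3 (0.988) and Syne2 (0.988), and for Slfn9 Actn1 (0.957), Sestd1 (0.956) and Osbpl3 (0.952). For Slfn1, whose levels rest on few counts, the highest values were 0.710 (Alas2), 0.705 (S100a9) and 0.696 (Camp).

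Among the members themselves, r over the 16 groups was highest between the near-identical neighbours Slfn8 and Slfn9 (0.743, Spearman's rho 0.174) and between Slfn5 and Slfn8 (0.734, rho 0.674). The other near-identical pair, Slfn3 and Slfn4, had 0.608 (rho 0.418). Slfn3 ran against Slfn5 (-0.837, rho -0.921) and Slfn4 against Slfn8 (-0.848, rho -0.674). Slfn2 was close to none of the others, with r between -0.498 (Slfn3) and 0.457 (Slfn8).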

How the data were processed

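Total RNA of sorted cells was amplified with a SMARTer Ultra Low Input kit and sequenced as single reads. Per the submitters' processing notes, the authors aligned reads with TopHat2 (2.0.13) and Bowtie2 (2.1.0) to mm10, took gene counts from StringTie and used DESeq2. The deposited table holds these raw counts. The reads carried no molecular identifiers, so PCR copies were counted. The authors' normalized table and their 8 tables of Aged against Young comparisons (log2 fold changes, p-values) were not used. No row of the count table named no gene.

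From the counts, edgeR 4.0.16 (R 4.3.3; limma 3.58.1) was run with TMM factors, filterByExpr over the 16 groups, 1 mean per group and the quasi-likelihood F-test over all 32 libraries. Benjamini-Hochberg adjustment was made within each contrast, and calls were made at an adjusted p under 0.01, the threshold of the study. SE is the log2 difference divided by the root of F. The coefficient of variation between duplicates beyond counting error, estimated by edgeR in common for all tested genes, was 0.113. On simulated counts for Aged against Young HSCs (13993 genes), the procedure recovered 40.3% of 1.5-fold, 59.1% of 2-fold and 78.5% of 4-fold changes. CPM used library totals, and levels per length used the union of exons of GENCODE M21.

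Alternatives were DESeq2 size factors, DESeq2 1.42.0, no filter, a mean of at least 1 CPM, a replicate block, a fit on 4 libraries and the omission of each library. Another 2 thresholds were applied to counts of calls only, and are not among the alternatives through which single differences were followed. The members and gene lists were chosen with earlier results of these data known. Named besides the members are the 3 genes most like each member, up to 5 genes per list called in the most age contrasts (Stat2 and Ccl6, tied with the last of these, were added after their values were seen; 1 gene of the rule is not reported here), the family's other genes, and markers whose sums moved with a member. Protein sequences were not used here.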

Additional observations from a re-analysis of the deposited data

Results flagged for a closer look

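Age differences of 3 members differed between fractions by a test of the difference itself (edgeR's quasi-likelihood test with Benjamini-Hochberg adjustment, each fraction against the mean of MPP1 to MPP4, 2 libraries per group). For Slfn2 the difference was -1.81 ± 0.18 in GMPs (adjusted p 1.46e-07) and -1.78 ± 0.30 in MEPs (9.05e-05). For Slfn5 it was 0.76 ± 0.14 in HSCs (0.00209), 0.88 ± 0.18 in GMPs (0.000504), 1.17 ± 0.17 in MEPs (1.18e-05) and 1.20 ± 0.15 in CLPs (2.28e-06). For Slfn3 it was -1.03 ± 0.20 in GMPs (0.000305), -0.71 ± 0.19 in MEPs (0.00632) and -0.75 ± 0.20 in CLPs (0.00647). All of these tests share the same MPP mean. When single libraries were left out, the Slfn5 calls in HSCs and GMPs and the Slfn3 calls in MEPs and CLPs were each lost in some runs, as given above. Groups of 2 libraries were too small to say which library of a group was outlying.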

How the results depend on the processing

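Of 49 called differences of a member, 49 kept their direction in every alternative run, 31 also kept their call and 18 lost it in at least 1. The 2 other thresholds were not among these runs and were applied to counts of calls only. When an absolute log2 change of at least 1 was also asked, 10 age differences became 5. With the same condition 26 differences of young fractions from HSCs became 17, and 13 differences of the third comparison became 5. The same condition took the interferon-stimulated genes from 101 calls over the 8 fractions to 36 and the signalling genes from 28 to 9, and an adjusted p under 0.05 took the latter to 44. Leaving out 1 library gave 7 to 14 age calls, 18 to 26 against young HSCs and 10 to 16 in the third comparison. The age difference of Slfn9 in MEPs ranged from -1.19 to 0.47 in this way and its distance from the MPP mean (-0.90) from -1.55 to 0.13, both set by the 2 Young MEP libraries. Of the 21 genes named as most like a member, 4 were in the top 3 by Spearman's rho and 12 by Pearson's r over 32 libraries.

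Replicate numbers gave little sign of pairing the libraries. Differences between replicates 2 and 1 of Young and Aged cells of a fraction correlated between -0.0557 and 0.0704 across genes. Young and Aged libraries came from different animals, so these values could not show pairing between fractions of 1 age. Over all pairs of groups, fractions of 1 age included, r lay between -0.0693 and 0.106 with a median of 0.00682. With a replicate block 10 age differences, 25 against young HSCs and 13 in the third comparison were called, and 1 call, Slfn4 in Young MEPs against HSCs, was lost (adjusted p 0.0117). Depth limits Slfn1 and Slfn14, and 2 libraries per group, perhaps from 1 pool, limit every p-value.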
